A study of Mus musculus with 6 samples.

Results

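Integrins are cell surface receptors made of an alpha and a beta subunit that tie cells to the surrounding matrix or to other cells. Those of the beta 2 family sit on leukocytes, where they bind endothelial ligands and complement, whereas most others hold stromal cells to collagen, fibronectin, vitronectin or laminin. Laminins are trimers of an alpha, a beta and a gamma chain that build the basement membrane, which in fat wraps adipocytes and vessels. The genes of both families were chosen by their symbols alone (alpha and beta integrin subunits, and laminin chains), with the brightest probeset where a gene had several. This gave 35 genes, from 36 probesets, out of 19938 genes with a symbol of their own on the array. Of them 8 were leukocyte integrins, 17 were matrix integrins and 10 were laminin chains. Itga2b and Itgb2l carry symbols outside the rule.

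The RNA stemmed from perigonadal visceral fat, viWAT, of 2 groups of obese mice. Hmox1f/f PdgfraCre mice carried floxed Hmox1, the gene of heme oxygenase-1 (HO-1), together with a Cre driven by the promoter of Pdgfra, a gene of adipose precursors (APs). Hmox1f/f mice carried the same floxed gene without Cre, so that effects of Cre itself and of Hmox1 loss cannot be told apart. All mice received a high-fat diet (HFD) for 8 weeks from an age of 6 weeks, and each group had 3 arrays of 2 pooled mice each, numbered 1 to 3 with Cre and 4 to 6 without. The methods describe males on a C57BL/6 J background and bead isolation of APs by removal of CD45 and CD31 cells followed by selection for SCA-1. The labels name the material both as AP cells and as viWAT. Several genes of cells that such beads should remove, and of adipocytes, were above a log2 intensity of 7 on all arrays. Lymphocyte genes such as Cd3d and Ms4a1 were below it on all arrays. The pan-leukocyte gene Ptprc, which encodes CD45, had log2 intensities from 10.06 to 10.57, the endothelial gene Pecam1, which encodes CD31, from 9.97 to 10.56, and the adipocyte gene Adipoq from 12.74 to 13.10. The AP marker Pdgfra ran from 10.05 to 10.36. Both leukocyte markers among the members, Itgam and Itgax, were at 10.27 to 11.60. Hmox1 was at 11.25, 11.36 and 10.74 with Cre and at 11.90, 11.63 and 12.32 without. Hmox1 thus differed by -0.83 ± 0.21 (SE; limma, adjusted p = 0.200), and where its probes lie relative to the deleted exon 2 was not analysed here. Values are log2 of the deposited intensities, and levels of different genes are not set against each other because probes differ in brightness. Precision is limited by the number of arrays.

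The comparison of both groups asks how these adhesion genes differed in obese visceral fat when Hmox1 was deleted in APs. Of the leukocyte integrins, the beta 2 subunit Itgb2 and its partners Itgam and Itgax were lower with Cre at an unadjusted p under 0.05, each by close to 0.66 log2 units. Of the matrix integrins, Itga5 and Itgb3 were lower at that level and Itga1 and Itgb4 were higher. Of the laminin chains, Lama5 was higher at that level. None of these differences passed the adjusted threshold. Of the 35 genes, 27 exceeded 7 on the log2 scale in 3 or more arrays and were tested. In limma 0 of the 27 passed an adjusted p of 0.05, as did 0 of 11024 genes in all (0%), and the adjusted p of the members ran from 0.200 to 0.976. At an unadjusted p under 0.05, 5 members were lower and 3 were higher with Cre, beside 13.8% and 3.82% of all genes tested. The 3 values of a group lay wholly below those of the other for 6 members and wholly above for 3, beside 21.2% and 5.82% of all genes. The split of all genes at an unadjusted p under 0.05 was 1523 lower and 421 higher, and 1123 lower and 702 higher after a further quantile normalization. Leaving out each array in turn gave from 902 lower and 168 higher, both without array 6, up to 1593 lower and 721 higher, both without array 2. For the members the further quantile normalization kept 5 lower and 3 higher. Leaving out each array in turn gave from 4 (without array 3 or 5) to 7 (without array 2) lower members. It gave from 1 (without array 1 or 6) to 4 (without array 4) higher members. The median difference was -0.08 over the 27 members and -0.03 over all genes, of which 57.4% had a negative difference.

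**Figure D1:**
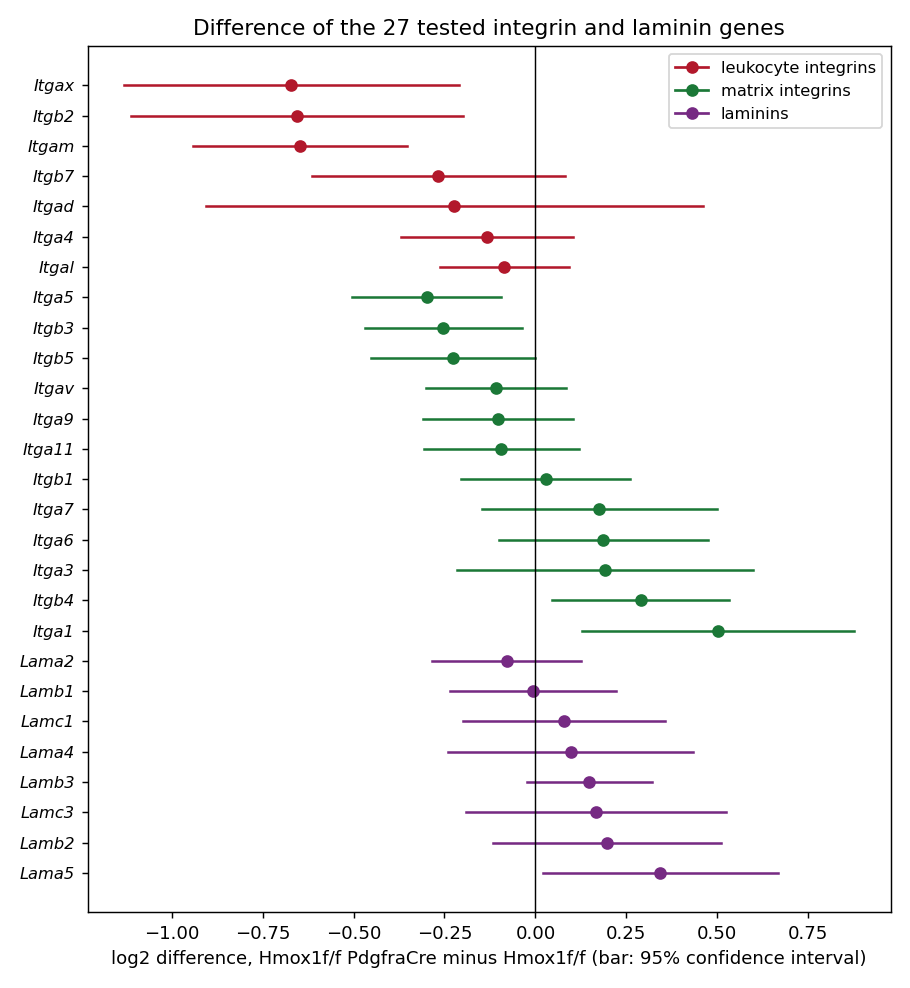
Log2 difference (horizontal axis) of the 27 tested genes between Hmox1f/f PdgfraCre and Hmox1f/f, 3 arrays each, with the 95% confidence interval from limma, ordered by size within leukocyte integrins, matrix integrins and laminins. Itgax, Itgb2 and Itgam lie farthest to the left, at -0.67, -0.66 and -0.65, and Itga1 farthest to the right, at 0.50.

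The promoters of 4 members that stood at the ends of their classes are shown because Itgam and Itgax were lower together, Itga5 was the lowest matrix integrin, and Itga1 had the highest difference of all members. Itgam, Itgax and Itgad are neighbours on chromosome 7. The sequences are the 250 bases before the start site from RefSeq (GRCm38.p6), which held promoters for 22 of the 35 genes, Itgb2 not among them. Capitals mark matches on either strand to GAGGAA, the core letters bound by the myeloid factor PU.1, to the GC box GGGCGG, or to TATAAA. Itgam lies at chr7:128062390-128062639 on the plus strand, Itgax at chr7:128129300-128129549 on the plus strand, Itga1 at chr13:115101965-115102214 on the minus strand and Itga5 at chr15:103366792-103367041 on the minus strand.
Itgam: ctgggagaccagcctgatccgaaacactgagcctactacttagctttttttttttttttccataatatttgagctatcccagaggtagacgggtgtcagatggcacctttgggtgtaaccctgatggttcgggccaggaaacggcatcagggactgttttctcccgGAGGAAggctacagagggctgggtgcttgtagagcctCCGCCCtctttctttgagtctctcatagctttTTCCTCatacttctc
Itgax: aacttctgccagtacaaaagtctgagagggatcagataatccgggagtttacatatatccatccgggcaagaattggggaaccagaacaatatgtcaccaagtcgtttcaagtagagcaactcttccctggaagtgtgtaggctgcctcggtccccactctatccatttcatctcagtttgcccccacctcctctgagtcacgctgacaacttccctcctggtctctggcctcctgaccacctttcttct
Itga5: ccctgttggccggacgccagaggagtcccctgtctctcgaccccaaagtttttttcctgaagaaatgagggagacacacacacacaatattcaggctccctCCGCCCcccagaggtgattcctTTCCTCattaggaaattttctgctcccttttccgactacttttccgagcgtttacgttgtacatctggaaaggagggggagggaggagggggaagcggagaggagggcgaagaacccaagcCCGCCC
Itga1: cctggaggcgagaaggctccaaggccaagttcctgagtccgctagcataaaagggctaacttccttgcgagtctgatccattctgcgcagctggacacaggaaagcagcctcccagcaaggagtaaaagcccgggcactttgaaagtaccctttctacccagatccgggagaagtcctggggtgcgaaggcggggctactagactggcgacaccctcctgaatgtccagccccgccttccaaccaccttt

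Itgam held GAGGAA letters at 84 to 79 and, on the other strand, at 15 to 10 bases before the start, with a GC box between them at 47 to 42. Itga5 held GAGGAA at 127 to 122 and GC boxes at 149 to 144 and at 6 to 1 bases before the start, all on the other strand. The windows of Itgax and Itga1 held none of these letters. GAGGAA was present in 12 of 25 promoters of members and in 23.3% of all 32851 promoters, the GC box in 9 of 25 and in 32.7%, and TATAAA in 0 of 25 and in 12.4%. The 12 promoters with GAGGAA belonged to genes of every direction, from Itgam and Itga5 to Lama5 and Lamb3. A match is a description of letters and does not show binding.

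Itgb2 encodes the beta 2 chain (CD18), without which the alpha chains of the family do not reach the leukocyte surface. On arrays 1, 2 and 3 with Cre it was measured at 11.57, 11.95 and 11.22 and on control arrays 4, 5 and 6 at 12.15, 12.07 and 12.48. All arrays with Cre lay below all those without, with array 2 close to array 5. Itgb2 was 1.58-fold lower with Cre, or -0.66 ± 0.19 log2 units (SE; 95% interval -1.11 to -0.20; adjusted p = 0.209 by limma).

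Itgam (CD11b) pairs with Itgb2 to form the complement receptor of macrophages and neutrophils. It was measured at 10.67, 11.04 and 10.72 with Cre and at 11.46, 11.31 and 11.60 without, again with no overlap. Itgam was 1.57-fold lower with Cre, or -0.65 ± 0.12 log2 units (SE), and the interval ran from -0.94 to -0.35. Its adjusted p of 0.200 by limma was the smallest of the members. It was also the smallest over all genes tested, a value that Hmox1 and other genes shared. Leaving out each array in turn kept it between -0.76 and -0.57.

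Itgax (CD11c), the alpha chain of dendritic cells and of the macrophages that gather in obese fat, was at 10.35, 11.04 and 10.27 with Cre and at 11.22, 11.14 and 11.30 without. The groups did not overlap, but array 2 with Cre stood only just under the controls, far above arrays 1 and 3. Itgax was 1.59-fold lower with Cre, or -0.67 ± 0.20 log2 units (SE; interval -1.13 to -0.21; adjusted p = 0.209 by limma). It was -0.91 without array 2 and -0.53 without array 3.

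The other alpha chains of the family did not pass an unadjusted p of 0.05. Itgal (CD11a), the chain of lymphocyte function antigen that most leukocytes carry, was dim, at 7.19, 7.23 and 7.08 with Cre and 7.23, 7.30 and 7.22 without. Its difference of -0.09 ± 0.08 (SE) had an interval from -0.26 to 0.09 (adjusted p = 0.554 by limma). Itgad (CD11d), a chain of tissue macrophages, was at 7.97, 8.41 and 8.41 with Cre and at 8.97, 8.68 and 7.80 without, so array 6 of the controls was the lowest of all. Its difference of -0.22 ± 0.29 (SE) had a wide interval, from -0.91 to 0.46, turned to 0.02 without array 4 and was -0.56 without array 6. A dimmer probeset of Itgad differed by -0.02, and the mean of both by -0.12.

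Outside the beta 2 family, Itga4 forms the receptor for the endothelial ligand Vcam1 with Itgb1, and a gut homing receptor with Itgb7. Itga4 was at 9.53, 9.76 and 9.71 with Cre and at 9.90, 9.85 and 9.65 without. The values overlapped and the difference was -0.13 ± 0.10 (SE, adjusted p = 0.496 by limma), or -0.065 without array 1. Itgb7 was near the limit of the filter, at 6.91, 7.17 and 6.64 with Cre and 7.15, 7.02 and 7.35 without, with a difference of -0.27 ± 0.15 (SE, adjusted p = 0.377 by limma), which was -0.14 without array 3. Itgae (CD103), which pairs with Itgb7 on intraepithelial lymphocytes and some dendritic cells, did not pass the filter and was at 6.00, 6.21 and 6.02 with Cre and 5.88, 6.11 and 5.91 without. Of the 7 leukocyte integrins tested, all 7 had a negative difference, 3 were lower at an unadjusted p under 0.05, and the median was -0.27, beside 57.4% negative and 13.8% lower among all genes tested. After a further quantile normalization or median centring all 7 stayed negative, with a median of -0.29 in each.

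**Figure D2:**
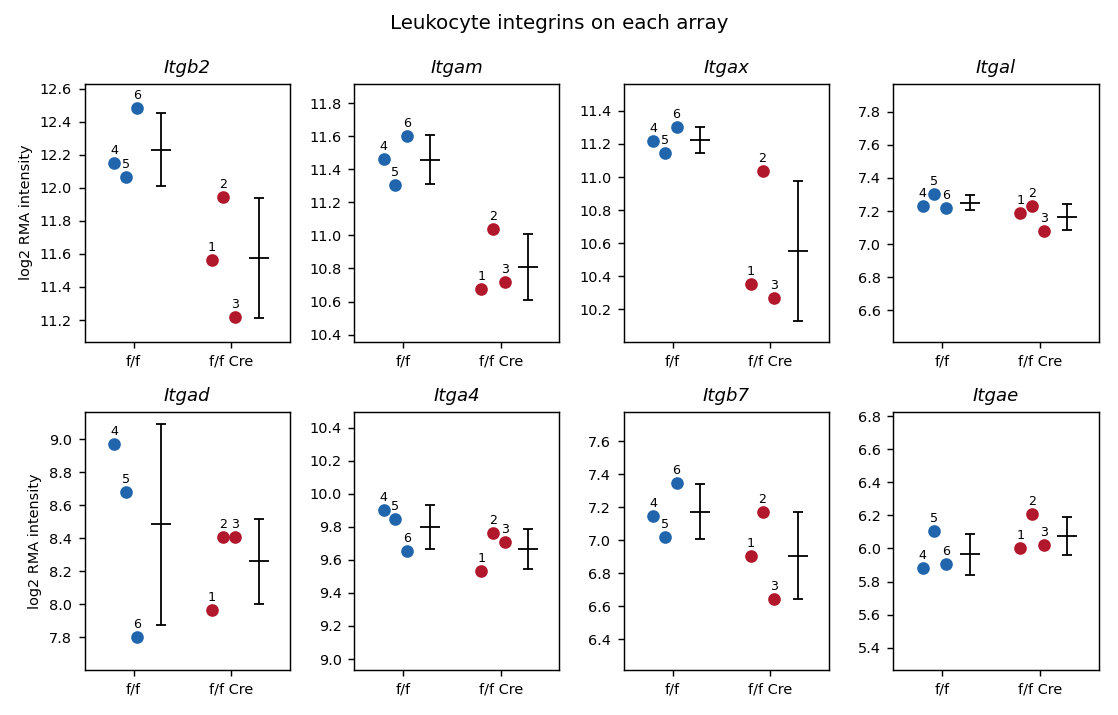
Values of the 8 leukocyte integrins on each array as log2 RMA intensity (vertical axis, spanning 1.6 log2 units per panel), with Hmox1f/f (f/f) in blue and Hmox1f/f PdgfraCre (f/f Cre) in red. Points carry the array number, and bars give mean and SD per group (n = 3). Itgb2, Itgam and Itgax with Cre lie below all controls, with array 2 nearest to them.

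Markers of macrophages, the integrins left out, moved with these genes. All 12 were tested, all 12 had a negative difference, 9 were lower at an unadjusted p under 0.05, and their median was -0.40. Over all genes tested, 57.4% had a negative difference, 13.8% were lower at that level, and the median was -0.03. Their log2 summed intensity ran from 14.79 to 15.23 with Cre and from 15.38 to 15.43 without. Adgre1, which encodes F4/80, was at 11.21, 11.60 and 11.08 with Cre and at 11.92, 11.83 and 11.85 without. Array 2 was again the closest to the controls. The part of these cells in the integrin differences was not tested, and in bulk RNA fewer cells of a type and less RNA per cell cannot be told apart. Ptprc, carried by all leukocytes, was at 10.06, 10.47 and 10.42 with Cre and at 10.57, 10.43 and 10.29 without, a difference of -0.11 ± 0.13 (SE, adjusted p = 0.665 by limma) with overlap. The T cell gene Cd3e differed by -0.07 ± 0.18 (SE), and of 8 lymphocyte markers measured only Cd3e and Cd2 passed the filter.

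Set against the mean of the macrophage markers on the same array, the leukocyte integrins split. The mean of the markers differed by -0.38 between groups. Relative to it, Itgax differed by -0.29, Itgb2 by -0.27 and Itgam by -0.27, and only Itgam did so without overlap. Itgal (0.30) and Itga4 (0.25) turned positive, both without overlap, and Itgad (0.16) and Itgb7 (0.11) turned positive with overlap. Any gene whose own difference is above -0.38 turns positive by the construction of this scale, and Itgal and Itgb7 were dim. Such a ratio does not say which of its terms moved.

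Matrix integrins numbered 17, of which 12 were tested. Of these 6 had a negative and 6 a positive difference, beside 57.4% negative among all genes, and the median of -0.03 turned to 0.01 after a further quantile normalization. At an unadjusted p under 0.05, 2 were lower and 2 were higher, beside 13.8% and 3.82% of all genes tested. The common beta 1 chain Itgb1, the partner of most matrix alpha chains, was at 11.66, 11.80 and 11.90 with Cre and at 11.85, 11.80 and 11.61 without. Its difference was 0.03 ± 0.10 (SE), with an interval from -0.21 to 0.26, and it turned negative in 3 of the other settings.

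Collagen receptors were led by Itga1, which binds the collagen IV of basement membranes. Itga1 was at 10.09, 9.98 and 10.41 with Cre and at 9.83, 9.78 and 9.37 without. All arrays with Cre lay above all controls, array 3 being the highest and array 6 the lowest. Itga1 was 1.42-fold higher with Cre, or 0.50 ± 0.16 log2 units (SE; interval 0.13 to 0.88; adjusted p = 0.214 by limma). It was 0.35 without array 6 and 0.38 without array 3. Itga11, a fibroblast receptor for fibrillar collagen, differed by -0.09 ± 0.09 (SE), and Itga2 and Itga10 did not pass the filter.

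Apart from Itgb1, 4 tested chains belong to receptors for fibronectin and vitronectin, which read the RGD motif. All 4 had a negative difference, and 2 of them, Itga5 and Itgb3, passed an unadjusted p of 0.05. Of all genes tested, 57.4% were negative, 13.8% were lower at that level, and 21.2% lay wholly below without overlap. Itga5, the alpha chain of the fibronectin receptor, was at 9.53, 9.60 and 9.39 with Cre and at 9.82, 9.72 and 9.89 without. The Itga5 groups did not overlap, and the gene was 1.23-fold lower with Cre, or -0.30 ± 0.09 log2 units (SE; interval -0.50 to -0.09; adjusted p = 0.209 by limma). Itgb3, a vitronectin receptor chain also known from platelets and osteoclasts, was at 7.62, 7.67 and 7.41 with Cre and at 7.76, 7.88 and 7.82 without. Its difference was -0.25 ± 0.09 (SE, adjusted p = 0.238 by limma), again without overlap. It was -0.17 without array 3. Itgb5, the partner of Itgav in many stromal cells and in phagocytes, was at 11.20, 11.32 and 11.01 with Cre and at 11.46, 11.35 and 11.39 without. Itgb5 differed by -0.23 ± 0.10 (SE, adjusted p = 0.284 by limma), just missed an unadjusted p under 0.05, and was at -0.14 without array 3. Itgav, which pairs with both, differed by -0.11 ± 0.08 (SE) with overlap, and by -0.054 without array 4. Itga9, a receptor for tenascin, differed by -0.10 ± 0.09 (SE).

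Of the laminin receptor chains other than Itgb1, 4 were tested, all 4 had a positive difference, and only Itgb4 passed an unadjusted p of 0.05. Shares over all genes tested were 57.4% negative, and 3.82% higher at that level. Itgb4, which joins Itga6 in the hemidesmosomes of epithelia, was at 7.94, 7.80 and 7.78 with Cre and at 7.73, 7.51 and 7.41 without. The groups did not overlap, and the Itgb4 difference was 0.29 ± 0.10 (SE), a 1.22-fold higher signal (adjusted p = 0.236 by limma). Itga6 differed by 0.19 ± 0.12 (SE), Itga3 by 0.19 ± 0.17 and Itga7, the laminin receptor of muscle, by 0.18 ± 0.14, all with overlap. Array 1 with Cre stood apart in epithelial genes, with the epididymal lipocalin Lcn5 at 12.21 against 5.39 to 5.86 elsewhere and the epithelial cadherin Cdh1 at 8.57 against 6.54 to 7.47. Without array 1 the difference was 0.24 for Itgb4, 0.07 for Itga3, 0.23 for Itga6 and 0.25 for Itga7. Other arrays weighed on the smaller differences, with 0.03 for Itga3 without array 6, and 0.07 for Itga6 and 0.04 for Itga7 without array 3.

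**Figure D3:**
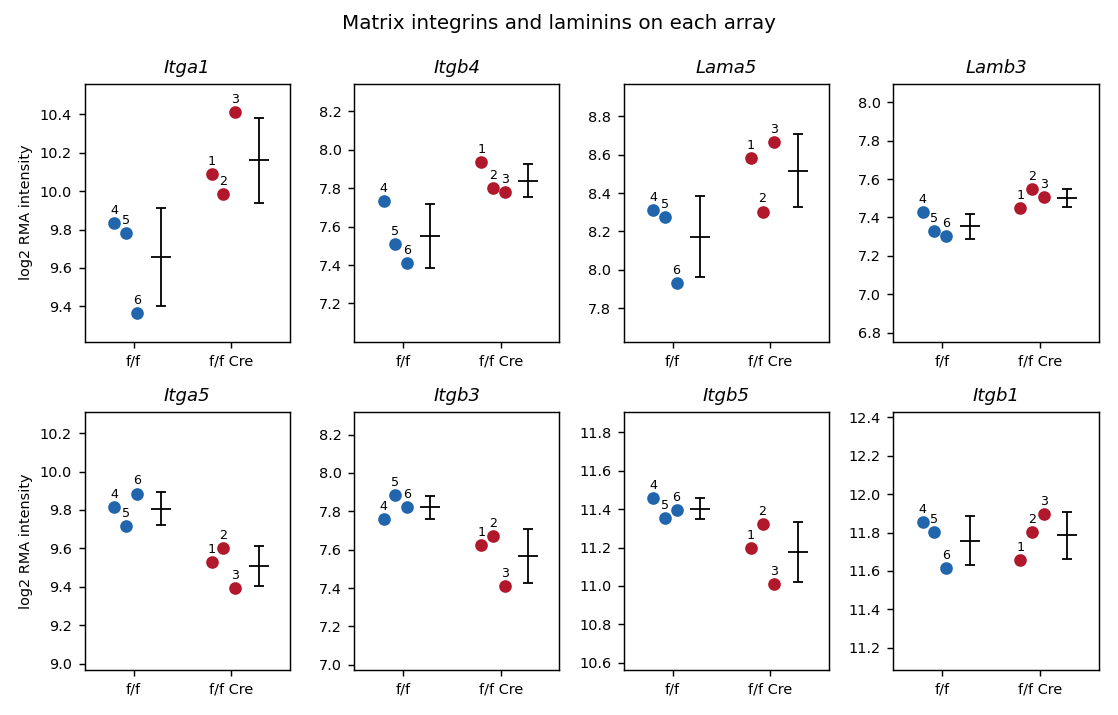
Values of 8 matrix integrins and laminins on each array as log2 RMA intensity (vertical axis, spanning 1.3 log2 units per panel), with Hmox1f/f (f/f) in blue and Hmox1f/f PdgfraCre (f/f Cre) in red. Points carry the array number, and bars give mean and SD per group (n = 3). Itga1, Itgb4 and Lamb3 with Cre lie above all controls, Itga5, Itgb3 and Itgb5 lie below them, and the values of Lama5 and Itgb1 overlap.

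Of the 10 laminin chains, 8 were tested, 6 with a positive and 2 with a negative difference, and the median was 0.12. This median was 0.043 without array 3, 0.078 without array 6 and 0.051 with arrayWeights. At an unadjusted p under 0.05, 1 was higher and 0 were lower by limma, in which 0 passed the adjusted threshold. Over all genes tested, 57.4% had a negative difference, and 3.82% were higher and 13.8% lower at that unadjusted level. Lama5, the alpha chain of endothelial and epithelial basement membranes, was at 8.58, 8.30 and 8.67 with Cre and at 8.31, 8.28 and 7.93 without. Array 2 overlapped the controls. Lama5 was 1.27-fold higher with Cre, or 0.34 ± 0.14 log2 units (SE; interval 0.02 to 0.67; adjusted p = 0.266 by limma), and 0.22 without array 6. Lama4, the other endothelial alpha chain, which also surrounds adipocytes, was at 10.08, 10.14 and 10.62 with Cre and at 10.18, 10.23 and 10.14 without. Array 3 alone stood high, and the Lama4 difference of 0.10 ± 0.14 (SE) turned to -0.07 without it. Lama2, the alpha chain of muscle and nerve, differed by -0.08 ± 0.09 (SE).

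Among the beta and gamma chains, Lamb3 was the only one without overlap, at 7.45, 7.55 and 7.51 with Cre and 7.43, 7.33 and 7.30 without. The Lamb3 difference was 0.15 ± 0.07 (SE, adjusted p = 0.332 by limma) and 0.17 without array 1. Lamb2, found in mature basement membranes, differed by 0.20 ± 0.13 (SE), by 0.086 without array 6 and by 0.31 without array 4. Lamb1, its counterpart in most early ones, differed by -0.01 ± 0.10 (SE). Lamc1, the gamma chain of most laminins, was at 10.98, 10.86 and 11.30 with Cre and at 11.02, 10.98 and 10.91 without, a difference of 0.08 ± 0.12 (SE). Lamc3 differed by 0.17 ± 0.15 (SE) and by 0.04 without array 2.

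Endothelial markers moved with Itga1 and Lama5. All 8 were tested, 8 had a positive difference, 5 were higher at an unadjusted p under 0.05, and the median was 0.37. Over all genes tested, 57.4% had a negative difference, 3.82% were higher at that level, and the median was -0.03. The log2 summed intensity of the endothelial markers ran from 12.93 to 13.12 with Cre and from 12.44 to 12.80 without, with array 6 the lowest. Of 8 mural markers 7 had a positive difference and 3 were higher at an unadjusted p under 0.05, with a median of 0.23 and a log2 summed intensity of 12.67 to 13.14 with Cre and 12.28 to 13.08 without. The pericyte gene Rgs5, with the largest difference of the mural markers (0.66), was at 10.28, 10.23 and 10.52 with Cre and at 9.99, 9.75 and 9.29 without. The mural markers Myh11 (-0.06), Acta2 (0.07) and Tagln (0.0050) differed with overlap. The part of vessel cells in these differences was not tested. Precursor markers did not share this direction, with 3 of 4 negative, among them Pdgfra at -0.17 ± 0.08 (SE, adjusted p = 0.323 by limma). Pi16, a gene of early progenitors, was also negative, at -0.30 ± 0.07 (SE, adjusted p = 0.200 by limma). Pi16 was near the limit of the filter, at 6.81, 6.70 and 6.73 with Cre and at 7.07, 7.04 and 7.02 without. It passed only through the controls, so that its being tested depended on the group where it was high. All 5 mesothelial markers had a negative difference (median -0.21), beside 57.4% of all genes, and Msln was at -0.18 ± 0.19 (SE) with overlap. All 5 adipocyte markers had a positive difference (median 0.13). Of the epithelial markers 3 of 6 passed the filter, all 3 positive but with overlap and highest on array 1, the array with high Lcn5. Of the dendritic cell markers 2 of 6 passed, at 0.09 and 0.15. No glial marker passed.

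The remaining 8 members did not pass the filter. They were Itgae, Itga2, Itga8, Itga10, Itgb6, Itgb8 and the laminin chains Lama1 and Lama3. Their values ran from 4.52 to 7.13, and only Itga2 exceeded 7, on array 4. Their group means differed by -0.05 to 0.19, with overlap in all of them.

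**Figure D4:**
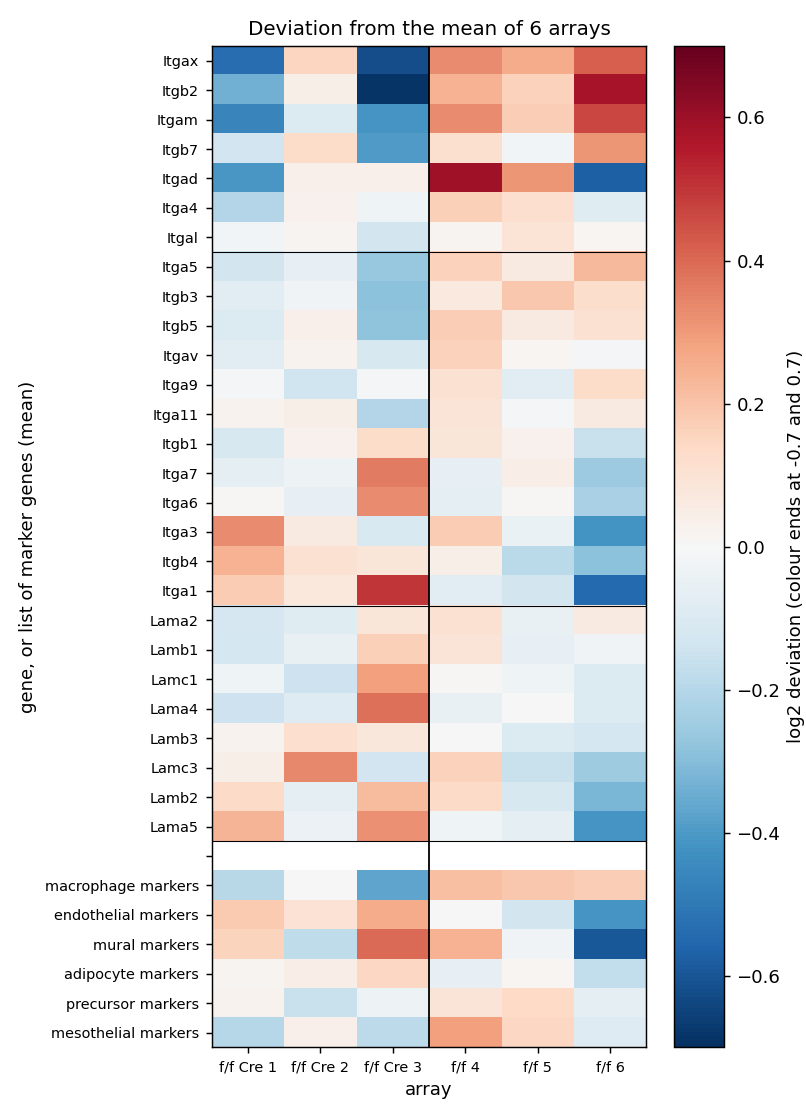
Deviation of each array (columns) from the mean of all 6 arrays in log2 units (colour) for the 27 tested genes, in classes parted by lines, and for the mean of 6 lists of marker genes. On average, leukocyte integrins and macrophage markers are low on arrays 1 and 3 with Cre, although Itgad is not low on array 3. Array 6 is low in Itga1, Lama5, endothelial and mural markers.

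Across arrays the members did not shift as a block, as the map of deviations by array shows. The 7 leukocyte integrins deviated on average by -0.30, 0.05 and -0.32 on arrays 1, 2 and 3 with Cre and by 0.26, 0.16 and 0.16 on arrays 4, 5 and 6. The groups did not overlap in this mean. The 12 matrix integrins averaged 0.02, 0.01 and 0.01 with Cre and 0.07, -0.0036 and -0.10 without. The laminins averaged 0.0023, -0.0027 and 0.18 with Cre and 0.05, -0.07 and -0.16 without, so array 3 alone lay above all controls. Array 6 was the lowest array for 11 of the 27 genes, and array 3 was the lowest for 9 and the highest for 9.

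Adaptors bind integrin tails inside the cell. Of 16 tested, 10 had a negative difference, 4 were lower and 2 were higher at an unadjusted p under 0.05, and 0 passed the adjusted threshold in limma. Shares over all genes tested were 57.4% negative, and 13.8% lower and 3.82% higher at that level. Without overlap, 21.2% of all genes lay wholly below and 5.82% wholly above. Fermt3, the kindlin of blood cells, was at 10.001, 10.23 and 9.78 with Cre and at 10.48, 10.50 and 10.81 without, with no overlap and a difference of -0.59 ± 0.14 (SE, adjusted p = 0.200 by limma). Fermt2, the kindlin of most other cells, was at 10.31, 10.23 and 10.54 with Cre and at 10.20, 10.13 and 9.91 without, also with no overlap and a difference of 0.28 ± 0.12 (SE, adjusted p = 0.275 by limma). The leukocyte adaptor Apbb1ip (-0.32), the kinase Syk (-0.39) and Parvg (-0.22) were the other lower ones. Tln2, a talin, was the other higher one (0.36), whereas the common talin Tln1 differed by -0.12 ± 0.08 (SE) and the focal adhesion protein Zyx by -0.16 ± 0.08 (SE), both without overlap.

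Among 7 tested ligands of leukocyte integrins, 3 had a negative and 4 a positive difference. Icam1, which binds the beta 2 family, differed by -0.19 ± 0.09 (SE) and Vcam1 by -0.12 ± 0.09, and only Thy1 (-0.45 ± 0.16) was lower at an unadjusted p under 0.05. Cdh1, the ligand of Itgae, differed by 0.41 ± 0.44 (SE), with array 1 high as given above. Among 9 ligands in the matrix, fibronectin, Fn1, differed by -0.12 ± 0.08 (SE), and only the collagen gene Col3a1 (-0.22 ± 0.09) was lower at that level. Of 11 partners of laminin in the basement membrane 8 had a positive difference, with a median of 0.13, beside -0.03 for all genes. Perlecan, Hspg2, was at 11.67, 11.52 and 11.93 with Cre and at 11.44, 11.38 and 11.20 without. Its difference of 0.37 ± 0.12 (SE, adjusted p = 0.220 by limma) and that of the linker nidogen, Nid1 (0.24 ± 0.10), were higher at an unadjusted p under 0.05 without overlap. No partner was lower at that level, at which 13.8% of all genes tested were lower and 3.82% higher.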

How the data were processed

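RNA of 6 pools, 3 per genotype, had been hybridised to Affymetrix mouse gene arrays after labelling of 200 ng. The deposited intensity values are linear and whole, between 8 and 20701. Per the labels and processing notes, the authors made them with robust multi-array average (RMA) in Affymetrix Expression Console 1.1. The quantile normalization of RMA hides shifts shared by most genes. Apart from that step, differences of dim genes are compressed in such values.

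Log2 values of 19938 genes with a unique symbol were formed, and the 11024 genes above 7 in at least 3 arrays were tested with limma 3.58.1 in R 4.3.3 (lmFit and eBayes, two-sided, with no term but genotype) and Benjamini-Hochberg adjustment across them. The methods describe such a model and filter for a Cre effect, under a heading on a diet screen of APs. No batch is given in the labels, and pools are the replicates. No 2 arrays were identical. The model was tested on simulated data. Alternatives changed the filter (none, at 6, that of the methods in full, or set after the fit), the scale (quantile, median, or macrophage marker mean), the moderation (trend and robust), the weights (arrayWeights), the probesets (averaged per gene) or the arrays (each left out). Members were named with every array value if leukocyte integrins, or if the groups did not overlap or the unadjusted p was under 0.05, and several others were chosen after their values were seen. From the other lists the genes with the smallest p and some defining genes were named. The members and lists were chosen with earlier results of these data known. All 35 members matched RefSeq by Entrez number. Figures were drawn with matplotlib 3.10.9.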

Additional observations from a re-analysis of the deposited data

How the results depend on the processing

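No member passed an adjusted p of 0.05 in limma in any of 16 settings, and the smallest adjusted p of a member was 0.0871 (0 of 397 values past the threshold). Of these 397 values 381 kept their direction, and 19 of 27 members never changed it. The methods' own filter also demands a high spread and so tests fewer genes (3351). With it, 12 members were tested, and 3 were lower and 1 higher at an unadjusted p under 0.05. Of the 3351 genes, 455 were lower and 138 higher at that level. The medians were -0.65 for the 5 leukocyte and 0.24 for the 4 matrix integrins kept. These medians moved with the genes kept, since the difference of each kept member was unchanged. With arrayWeights the leukocyte median was -0.49, and Itgb1 (-0.063), Lama4 (-0.030) and Lamc1 (-0.0084) turned negative. A further quantile normalization turned Lamb1 to 0.026. Relative to the macrophage markers, the leukocyte median was 0.11, with Itgal at 0.30, Itgad at 0.16, Itga4 at 0.25 and Itgb7 at 0.11, by the construction of that scale. Leaving out each array in turn gave 1 (without array 1 or 6) to 4 higher members and a leukocyte median from -0.53 (without array 6) to -0.27. It moved Itgad from -0.56 to 0.020, Itgb1 from -0.043 to 0.092, Lama4 from -0.071 to 0.20, Lamb1 from -0.090 to 0.053 and Lamc1 from -0.046 to 0.17. Applying the filter after the fit, which was chosen after seeing the data, gave 5 lower and 2 higher members. Other causes were not tested. Members near a log2 intensity of 7 are limited by their dim signal. No paired analysis was possible because the groups share no array numbers.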
